A study of Homo sapiens with 6 samples.

Results

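A set of 10 genes for non-muscle myosin II and for the RHOA pathway that activates it was examined in RD cells, an established line of embryonal rhabdomyosarcoma (ERMS), with and without knockdown of TAK1. The genes were MYH9, MYH10, MYL6, MYL9, MYL12A, MYL12B, MYLK, ROCK1, ROCK2 and RHOA, and were found by their symbols, each on 1 of the 58735 rows of the count table. All 10 passed the filter on low counts, which left 15935 genes. RD cells were transduced with lentivirus carrying scrambled shRNA (control, n = 3) or TAK1 shRNA (n = 3), and poly(A)-enriched RNA was sequenced. Both groups thus carry a lentiviral shRNA cassette. A single TAK1 shRNA sequence was used for these libraries, so loss of TAK1 and other actions of that construct cannot be told apart. The labels number the replicates of a group, here called cultures, but do not say that they came from separate cultures, so the p-values measure the spread between these samples.

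Non-muscle myosin II is the motor that pulls on actin filaments in cells outside the sarcomere, and it drives cell shape, adhesion, migration and the closing of the cleavage furrow. A molecule holds a pair of heavy chains (MYH9 encodes IIA, MYH10 IIB and MYH14 IIC), a pair of essential light chains (MYL6) and a pair of regulatory light chains (MYL9, MYL12A or MYL12B). Phosphorylation of the regulatory light chain on adjacent threonine and serine residues switches the motor on. MYLK, the calcium- and calmodulin-dependent myosin light chain kinase, and the RHOA-activated kinases ROCK1 and ROCK2 phosphorylate that site, and ROCK also inhibits the phosphatase that removes the phosphate. In myoblasts this machinery acts in migration and in the alignment of cells before fusion, and sarcomeric myosins take its place in the contractile apparatus of mature muscle.

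The 3 regulatory light chain genes are shown by the first 90 bases of their coding sequence, because they are the shared substrate of MYLK and ROCK and their mRNAs responded differently. The sequences were read from the MANE Select transcripts of GENCODE 44 (GRCh38), and the capitals mark the adjacent threonine and serine codons. These are codons 18 and 19 in MYL9 and MYL12B and codons 17 and 18 in MYL12A, counted from the codon after the start codon.
MYL9: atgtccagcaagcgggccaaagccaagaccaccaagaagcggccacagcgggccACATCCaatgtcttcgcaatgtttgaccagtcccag
MYL12A: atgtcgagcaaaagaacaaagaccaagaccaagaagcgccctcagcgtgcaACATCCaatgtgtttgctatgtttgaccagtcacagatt
MYL12B: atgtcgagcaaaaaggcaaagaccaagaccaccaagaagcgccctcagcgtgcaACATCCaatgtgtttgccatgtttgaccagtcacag
The capitals are the same 6 letters in all 3 genes. Over the whole coding sequence, MYL12A and MYL12B were 95.7% identical, while MYL9 was 79.3% identical to MYL12A and 80.8% to MYL12B. MYL12A and MYL12B lie side by side on the plus strand of chromosome 18, from 3247481 to 3256236 and from 3261479 to 3278461. The reads were 75 bases long, and of the 884 stretches of that length in the MYL12A transcript 3 also occurred in MYL12B and 0 in MYL9. How reads with several matches were counted is not given in the sources used here, so the split between MYL12A and MYL12B is slightly uncertain.

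TAK1 is encoded by MAP3K7, and its own mRNA was examined first. In units of CPM (counts scaled to the normalized library size), MAP3K7 was at 77.9, 76.5 and 77.6 in control and at 30.5, 33.6 and 29.9 in TAK1 knockdown cultures, so the groups lay far apart. Its log2 fold change, always given as TAK1 knockdown minus control, was -1.30 ± 0.0615 (SE). Total counts ran from 28839898 to 34469323 per sample. Muscle lineage markers were abundant in every library, with a summed level of 1980 to 2020 CPM in control and 1920 to 2030 CPM in knockdown cultures. Of the 7, however, 3 were upregulated, MYOD1 and MYOG, regulators of myogenic differentiation (log2 fold changes 0.37 and 0.27), and the fusion factor MYMK (0.98), and 1 was downregulated, the acetylcholine receptor subunit CHRNA1, from 921 ± 11.5 to 700 ± 2.33 CPM (SD, n = 3; -0.40). These markers thus moved with the TAK1 knockdown in the same cultures as the contractility genes, and their part in the results was not tested. None of the 4 epithelial and 4 endothelial markers reached more than 0.425 CPM in any library, and CDH1, CDH5 and KDR had 0 counts in all 6. Of the 5 smooth muscle markers, MYOCD was at 0 and none reached more than 1.14 CPM in any library. Fibroblast markers were carried by COL1A1, and none of the 4 passed the test.

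Knockdown of TAK1 was accompanied by lower mRNA levels of RHOA, both ROCK kinases, MYLK and the regulatory light chains MYL12A and MYL12B, and by a small increase of MYL9. Heavy chains MYH9 and MYH10 were lower by less, and MYL6 did not differ detectably. A gene was called when its adjusted p was under 0.05 and its absolute log2 fold change was at least 0.25 (edgeR's quasi-likelihood test, Benjamini-Hochberg adjustment over the 15935 genes). By this rule 6 of the 10 genes were downregulated, against 11.3% of all genes tested, and 1 was upregulated, against 11.8%. With scaling by library size alone, 4 were downregulated and 1 upregulated. Without the fold threshold 9 of the 10 passed, 8 of them lower, against 33.3% of all genes in either direction. The values of the groups did not overlap for 8 of the 10 genes, against 43.9% of all genes. By mean CPM, MYLK lay at percentile 61 of the genes tested and the other members from 80.3 (ROCK1) to 99 (MYH9). Genes with more counts pass such criteria more easily, and the shares over all genes were not matched for level. The median log2 fold change was -0.27 over the 10 genes and 0.018 over all genes tested. As these are bulk samples, fewer cells that express a gene and less of its RNA per cell cannot be told apart.

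**Figure D1:**
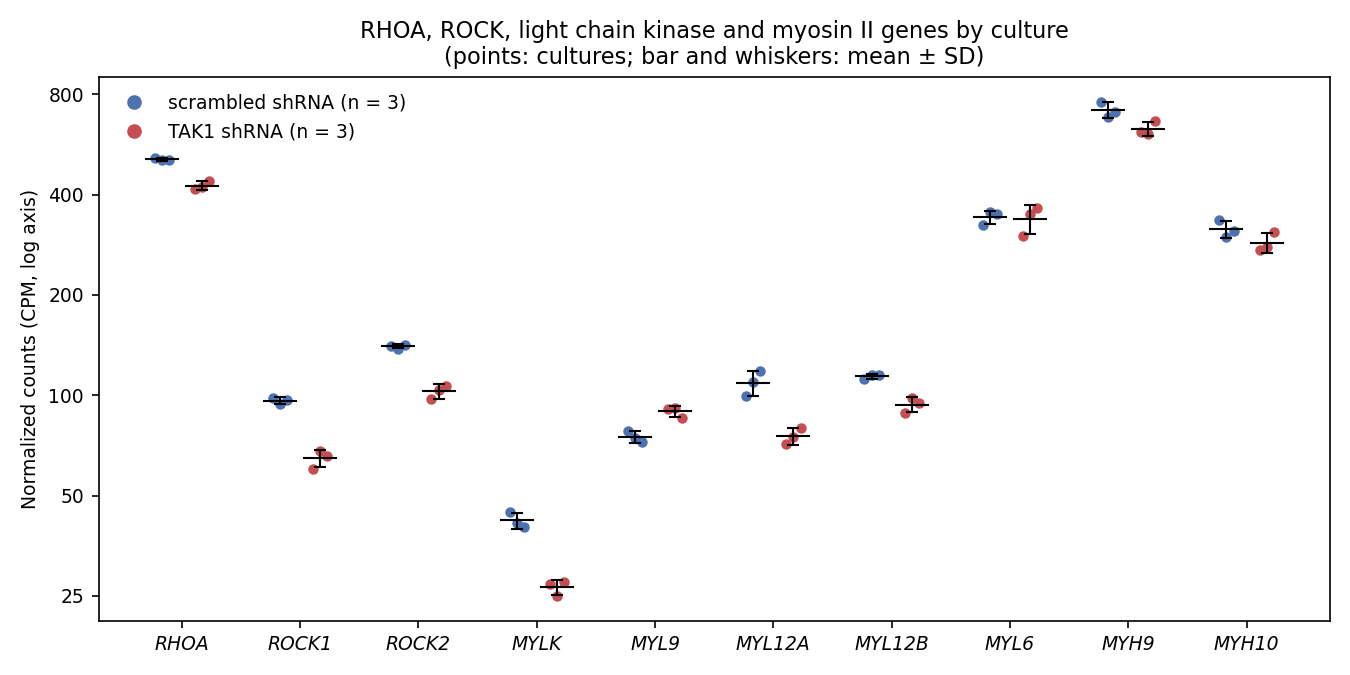
Normalized counts (CPM, log axis) of the 10 genes in each culture, in blue for scrambled shRNA and red for TAK1 shRNA, with the mean and SD of 3 cultures as black bars. The red points lie wholly under the blue ones for RHOA, ROCK1, ROCK2, MYLK, MYL12A, MYL12B and MYH9, wholly above them for MYL9, and overlap them for MYL6 and MYH10.

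RHOA is the small GTPase at the head of the pathway, which binds and activates ROCK when loaded with GTP. In GRCh38 the gene is at chr3:49359139-49412998, minus strand. Its level was 516, 508 and 507 CPM with scrambled shRNA and 415, 422 and 440 CPM with TAK1 shRNA. Every knockdown culture thus lay under every control culture. The log2 fold change was -0.26 ± 0.0421 (SE; edgeR quasi-likelihood adjusted p = 2.43e-05), a level 0.834 times that of control. This lies close to the fold threshold. It was -0.244 without replicate 1 of the knockdown cultures, -0.245 with upper-quartile normalization and -0.21 with scaling by library size alone, all under the threshold. Of the exon bases of RHOA, 19% overlap exons of other annotated genes, among them TCTA on the opposite strand, so part of its count may be shared.

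Both ROCK kinases, which phosphorylate the regulatory light chain and the myosin phosphatase, were downregulated. ROCK1, at chr18:20944612-21111813 (minus strand), was measured at 98.4, 94.0 and 96.8 CPM in control cultures. In knockdown cultures it reached 60.3, 68.1 and 65.8 CPM. The log2 fold change was -0.57 ± 0.0555 (SE; edgeR quasi-likelihood adjusted p = 1.2e-08), and with any 1 culture left out it stayed between -0.613 and -0.525. ROCK2, at chr2:11179759-11348330 (minus strand), fell from 141, 138 and 142 CPM to 97.2, 104 and 107 CPM. Its log2 fold change was -0.45 ± 0.05 (SE; edgeR quasi-likelihood adjusted p = 1.29e-07). For both kinases the gap between the groups was wider than the range within either group. Exons of neither gene overlap those of another annotated gene, and no stretch of 75 bases is shared between their transcripts. Copies of either gene elsewhere in the genome were not searched for.

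The mRNA of ROCK1 and ROCK2 together amounted to 237 ± 4.24 CPM in control and 168 ± 8.79 CPM in knockdown cultures (SD, n = 3 each), a change of -29.2%. Within this sum ROCK1 made up 41.1%, 40.6% and 40.6% of the counts in control cultures and 38.3%, 39.5% and 38.1% in knockdown cultures. Its share was thus lower in every knockdown culture, by 2.12 percentage points on average (two-sided exact permutation p = 0.1, the smallest that 3 against 3 allows). A share within a library does not depend on how the libraries are scaled. Per kilobase of MANE Select transcript, ROCK2 was the more abundant of the pair in control cultures, at 16.8 ± 0.26 against 10.2 ± 0.235 RPKM (CPM divided by the length in kilobases; SD, n = 3).

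MYLK had the fold change farthest from 0 among the 10 genes and the lowest level per transcript length. This gene (chr3:123610049-123884332, minus strand) was counted at 44.8, 41.3 and 40.3 CPM in control cultures and at 27.2, 25 and 27.5 CPM in knockdown cultures. The highest knockdown culture was well under the lowest control culture. The log2 fold change was -0.67 ± 0.07 (SE; edgeR quasi-likelihood adjusted p = 4.76e-08), or a level 0.63 times that of control. Leaving out any 1 culture gave values between -0.70 and -0.62. MYLK has 57 annotated transcripts, which include full-length kinases and short forms from an internal start, and the counts give their sum. Exons of antisense transcripts cover part of the 3.09% of its exon bases that overlap another gene.

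The regulatory light chains moved in opposite directions. MYL12A decreased from 99.3, 110 and 118 CPM in control cultures to 71.2, 75.1 and 79.9 CPM in knockdown cultures, a log2 fold change of -0.535 ± 0.0608 (SE; edgeR quasi-likelihood adjusted p = 1.63e-07). MYL12B decreased by less, from 112, 115 and 115 CPM to 88.4, 97.9 and 94.7 CPM. Neither gene had overlapping groups. The log2 fold change of MYL12B was -0.29 ± 0.0512 (SE; edgeR quasi-likelihood adjusted p = 9.75e-05), and it was -0.246 without replicate 1 of the knockdown cultures and -0.237 with scaling by library size alone, under the fold threshold in both.

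MYL9, the regulatory light chain best known from smooth muscle and from stress fibers, rose from 78.3, 74.7 and 72.4 CPM to 91.2, 91.5 and 85.7 CPM. It is at chr20:36541497-36551447 (plus strand) and its exons overlap no other gene. All 3 knockdown cultures lay above all 3 control cultures. The log2 fold change was 0.25 ± 0.0536 (SE; edgeR quasi-likelihood adjusted p = 0.000642), at the edge of the fold threshold. In 8 of the 16 alternatives it was not called, among them DESeq2 (0.246, adjusted p = 0.000126) and the fits without control replicate 3 (0.23) or knockdown replicate 2 (0.23). The adjusted p was at most 0.0104 in all 16, though a changed fold threshold alone leaves it as in the main fit.

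MYL9 also made up more of the regulatory light chain counts in each knockdown culture. It held 27.0%, 24.9% and 23.6% of the counts of the 3 genes in control cultures and 36.4%, 34.6% and 32.9% in knockdown cultures. The lowest knockdown culture was above the highest control culture, and the means were 25.2% ± 1.72 and 34.6% ± 1.72 (SD, n = 3), a difference of 9.43 percentage points (two-sided exact permutation p = 0.1, the smallest possible). With counts taken per kilobase of MANE Select transcript the shares were 11.3% ± 0.953 and 16.8% ± 1.08, since the annotated MYL9 transcript of 2786 bases is the longest of the 3. The summed level of the 3 mRNAs was 299 ± 8.41 CPM in control and 259 ± 6.98 CPM in knockdown cultures, a change of -13.4% (exact permutation p = 0.1).

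**Figure D2:**
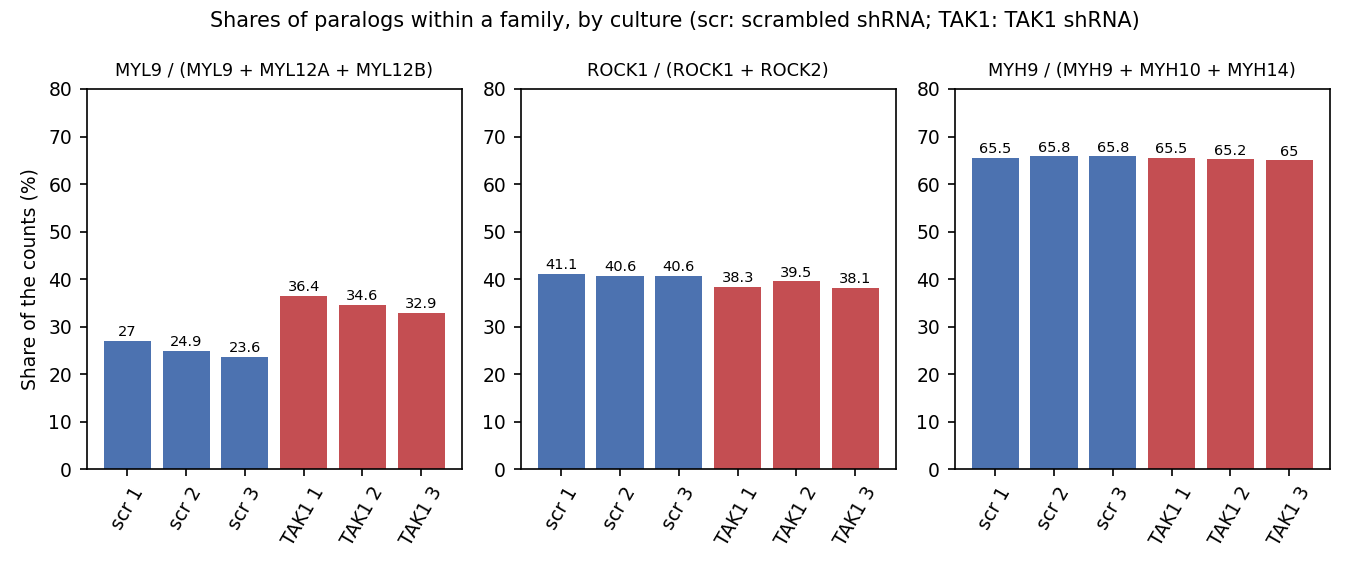
Share of the counts (%) that MYL9, ROCK1 and MYH9 held within their families in each of the 6 cultures, in blue for scrambled shRNA and red for TAK1 shRNA. The MYL9 share was 23.6% to 27.0% in control and 32.9% to 36.4% in knockdown cultures, the ROCK1 share was slightly lower in each knockdown culture, and the MYH9 share stayed between 65.0% and 65.8%.

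MYL6, the essential light chain of non-muscle and smooth muscle myosin II, was measured at 325, 354 and 349 CPM in control and at 301, 351 and 364 CPM in knockdown cultures. The groups overlapped, and the knockdown cultures held both the lowest and the highest value. Its log2 fold change was -0.015 with a 95% interval from -0.17 to 0.14 (from the standard error and 4 residual degrees of freedom), and its sign changed between settings. Of its exon bases, 18.3% overlap SMARCC2 or its neighbour MYL6B.

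MYL6B encodes a related essential light chain of slow skeletal and non-muscle myosin and is not among the 10 genes. It rose from 85.2 ± 1.98 to 107 ± 0.618 CPM (SD, n = 3), or by 0.33 on the log2 scale. Together the pair reached 427 ± 15.5 CPM in control and 446 ± 33.5 CPM in knockdown cultures, with overlapping groups (exact permutation p = 0.5).

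The heavy chains carry the motor domain and the tail through which myosin II forms filaments. MYH9, at chr22:36281280-36388010 (minus strand), was measured at 761, 686 and 708 CPM with scrambled shRNA and at 617, 610 and 667 CPM with TAK1 shRNA. The groups did not overlap, and the log2 fold change was -0.19 ± 0.0465 (SE; edgeR quasi-likelihood adjusted p = 0.00291). This passed the adjusted p in all alternatives but lay under the fold threshold of 0.25, so MYH9 was not called.

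MYH10, at chr17:8474207-8631376 (minus strand), reached 336, 298 and 312 CPM in control and 273, 279 and 309 CPM in knockdown cultures. One knockdown culture lay within the range of the control cultures. Its log2 fold change was -0.135 ± 0.0519 (SE; edgeR quasi-likelihood adjusted p = 0.0472), and its adjusted p ran from 0.0056 to 0.277 over the alternatives. MYH14, the IIC heavy chain, decreased from 60 ± 5.27 to 49.8 ± 2.67 CPM (SD, n = 3; log2 fold change -0.27). MYH9 made up 65.7% ± 0.203 of the counts of the 3 heavy chains in control and 65.2% ± 0.255 in knockdown cultures (SD, n = 3; two-sided exact permutation p = 0.2).

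**Figure D3:**
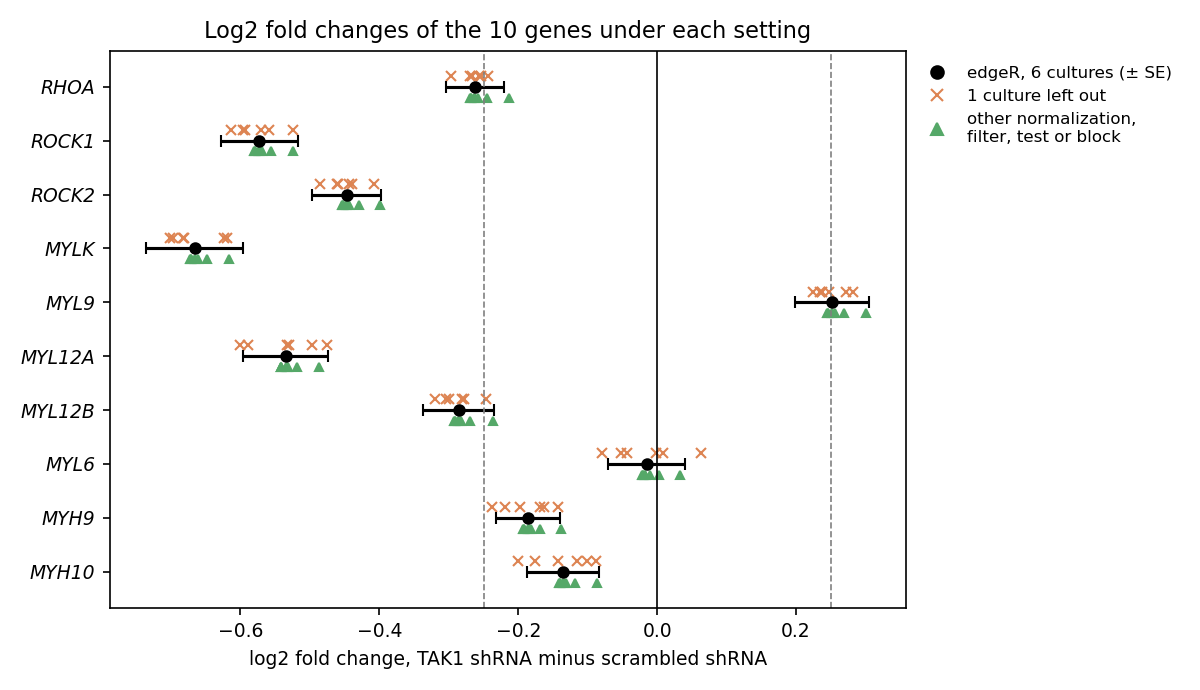
Log2 fold change (TAK1 shRNA minus scrambled shRNA) of the 10 genes, with black points and whiskers for edgeR on 6 cultures and its standard error, crosses for fits with 1 culture left out and triangles for another normalization, filter, test or replicate block. Dashed lines mark the fold threshold of 0.25, which MYLK, ROCK1, MYL12A and ROCK2 exceed under each setting drawn, while RHOA, MYL12B and MYL9 lie beside it and MYL6 straddles 0.

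Levels can be compared between genes only per length, here per kilobase of MANE Select transcript. On this scale the control cultures held 483 ± 21.9 RPKM of MYL6, 283 ± 2.87 of RHOA, 114 ± 9.97 of MYL12A, 98.2 ± 1.66 of MYL12B and 96.4 ± 5.18 of MYH9 (SD, n = 3). The ranges of MYL12B and MYH9 overlapped, so their order is not resolved. MYH10 followed at 40.9 ± 2.5, MYL9 at 27.0 ± 1.07, ROCK2 at 16.8 ± 0.26, ROCK1 at 10.2 ± 0.235 and MYLK at 4.17 ± 0.236 RPKM. In knockdown cultures MYL12A, at 78.7 ± 4.52 RPKM, fell on this scale to the level of MYL12B, at 80.5 ± 4.16, with overlapping ranges. The order depends strongly on the length used, since the isoforms were not counted apart. Some genes may also hold only part of their reads, as the counter and annotation are not given in the sources used here. With the union of all annotated exons as the length, RHOA (106 ± 1.08 RPKM) lay above MYL6 (77.4 ± 3.5) and MYL12B (65.7 ± 1.11) above MYH9 (42.2 ± 2.26) and MYL12A (36.0 ± 3.15) in control cultures. MYH10 (9.64 ± 0.589) then lay under MYL9 (26.8 ± 1.06) and ROCK2 (12 ± 0.186), while ROCK1 (7.21 ± 0.166) and MYLK (1.34 ± 0.0756) were the lowest on both scales. With exon-union length, MYL12A (24.9 ± 1.43 RPKM) also lay well under MYL12B (53.9 ± 2.78) in knockdown cultures.

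Other genes of the pathway were examined in 10 lists, which hold 141 genes beside the 10, and 122 of them were tested. Of these, 24 were downregulated (19.7%, against 11.3% of all genes tested) and 19 upregulated (15.6%, against 11.8%). With scaling by library size alone, 18 were downregulated and 25 upregulated, so which direction held more calls depends on the scaling. Their median log2 fold change was -0.082. The list of stress fiber and smooth muscle-type contractile genes held the most downregulated members, 9 of 23 tested (39.1%), with 3 upregulated (13%) and a median of -0.21.

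The myosin phosphatase removes the phosphate that MYLK and ROCK place on the regulatory light chain. The list of phosphatase genes also holds genes for inhibitors of the phosphatase. Of its 8 tested genes 2 were downregulated (25%, against 11.3% of all genes tested) and 0 upregulated (against 11.8%). The median log2 fold change was -0.14. The 2 downregulated genes were the targeting subunits PPP1R12A, also called MYPT1 and itself inhibited by ROCK, which fell from 78.9 ± 1.4 to 64.4 ± 2.89 CPM (SD, n = 3; log2 fold change -0.29), and PPP1R12C (-0.34). A further targeting subunit, PPP1R12B, was higher in every knockdown culture (log2 fold change 0.20) but stayed under the fold threshold. Among the other kinases of the regulatory light chain, 1 of 10 tested genes was downregulated (10%, against 11.3%) and 0 were upregulated. The downregulated gene was DAPK1, at -0.25, on the fold threshold.

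RHOA is switched on by guanine nucleotide exchange factors, and 16 of these were tested. The 3 downregulated ones (18.8%, against 11.3% of all genes tested) were NET1, ECT2 and ARHGEF2. The 4 upregulated ones (25%, against 11.8%) were ARHGEF10L, ARHGEF17, ARHGEF25 and PLEKHG5. NET1 fell from 142 ± 0.82 to 80.7 ± 3.35 CPM (SD, n = 3; log2 fold change -0.815), ECT2 from 125 ± 5.05 to 75.1 ± 4.98 CPM (-0.735) and ARHGEF2, known as GEF-H1, which is released from microtubules, from 369 ± 10.4 to 246 ± 8.92 CPM (-0.58). ECT2 activates RHOA at the cleavage furrow of dividing cells. ARHGEF17 rose from 65.2 ± 2.47 to 88.3 ± 5.08 CPM (log2 fold change 0.44) and ARHGEF10L from 5.86 ± 0.5 to 8.41 ± 0.581 CPM (0.52).

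Inhibitors of RHOA showed no common direction, with a median log2 fold change of 0.005. Of 16 tested genes, 1 was downregulated (6.25%, against 11.3% of all genes tested) and 3 were upregulated (18.8%, against 11.8%). The GTPase-activating protein ARHGAP18 fell from 45.4 ± 0.881 to 24.8 ± 1.45 CPM (SD, n = 3; log2 fold change -0.87). DLC1, a RHOA-inactivating tumor suppressor, rose from 10.6 ± 0.517 to 14.9 ± 1.65 CPM (0.485), and ARHGAP26 and ARHGAP28 rose by 0.33 and 0.285 on the log2 scale.

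**Figure D4:**
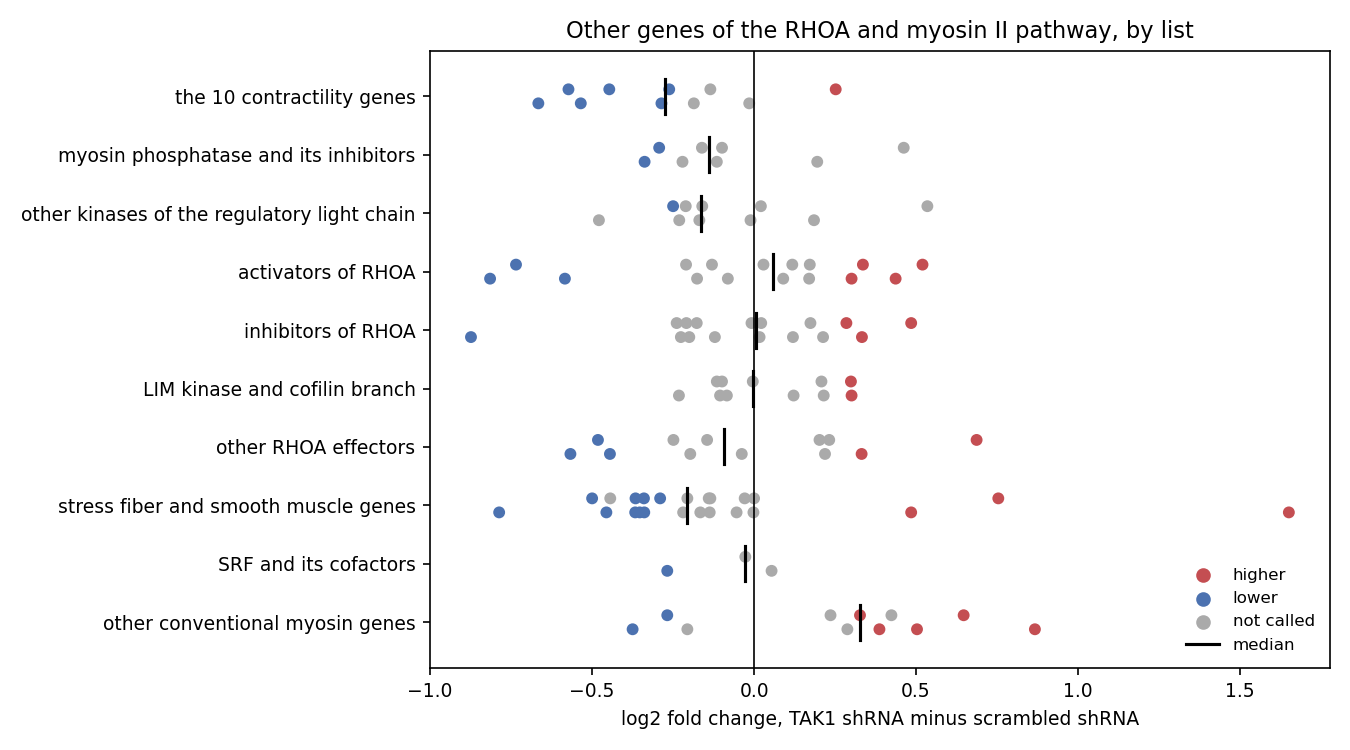
Log2 fold changes (TAK1 shRNA minus scrambled shRNA) of the tested genes in 9 of the pathway lists, with 1 point per gene, in blue for downregulated, red for upregulated and grey for genes not called, and a black line at the median of each list. The median was -0.27 for the 10 contractility genes, -0.21 for the stress fiber and smooth muscle list and 0.33 for the other conventional myosin genes.

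ROCK also phosphorylates LIM kinase, which inactivates the actin-severing protein cofilin. In this branch 0 of 11 genes were downregulated (against 11.3% of all genes tested) and 2 were upregulated (18.2%, against 11.8%). The upregulated genes were the cofilin phosphatase SSH3 (log2 fold change 0.30) and TESK2 (0.30). Of the other RHOA effectors, 3 of 12 tested genes were downregulated (25%, against 11.3%) and 2 upregulated (16.7%, against 11.8%). The downregulated ones were RHPN2 (-0.57), the formin FHOD1 (-0.48) and DIAPH3 (-0.445), a formin of the cleavage furrow, while DAAM1 (0.33) and RHPN1 (0.69) were upregulated.

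Among stress fiber and smooth muscle-type genes, the largest decreases were those of tropomyosin TPM4, from 663 ± 12.2 to 384 ± 20.7 CPM (SD, n = 3; log2 fold change -0.79), and of the actin crosslinker ACTN4, from 1330 ± 41.6 to 938 ± 19.1 CPM (-0.50). ANLN, which links actin and myosin II in the cleavage furrow, fell by 0.46 on the log2 scale. Of the other lists, RACGAP1 (-0.24) and CIT (0.021), which also act in the cleavage furrow, were not called. The 3 upregulated genes were SYNPO (1.65), TAGLN (0.75) and SYNPO2 (0.485). SYNPO and TAGLN were near 2 CPM in control cultures, while SYNPO2, a protein of muscle Z-discs, rose from 93.3 ± 3.4 to 131 ± 4.38 CPM.

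Sarcomeric and other conventional myosin genes had the highest median of the lists, 0.33. Of 11 tested genes, 5 were upregulated (45.5%, against 11.8% of all genes tested) and 2 downregulated (18.2%, against 11.3%). The list also holds non-muscle MYH14, and MYL6B, whose value is the median. MYH3 rose from 105 ± 6.38 to 124 ± 11.4 CPM (log2 fold change 0.24) but stayed under the fold threshold. Of the called genes, those with the largest changes were MYL5 (log2 fold change 0.87, from 2.94 ± 0.207 to 5.37 ± 0.424 CPM), MYL1, the essential light chain of fast skeletal muscle (0.65, from 114 ± 4.3 to 178 ± 12.3 CPM), MYH8 (0.50) and MYLPF, the regulatory light chain of fast skeletal muscle (0.39). MYLPF rose from 120 ± 2.03 to 157 ± 0.998 CPM (SD, n = 3), while 2 of the 3 non-muscle regulatory light chain genes fell in the same cultures. The downregulated ones were MYL4 (-0.375) and MYH14.

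SRF, a transcription factor that binds the CArG box of many contractile genes, is activated when RHOA and ROCK promote actin assembly and so release its MRTF cofactors. Among these genes MRTFB fell from 47.1 ± 4.02 to 39.1 ± 2.06 CPM (log2 fold change -0.27), SRF itself had a log2 fold change of -0.027 (edgeR adjusted p = 0.787) and MRTFA of 0.054 (edgeR adjusted p = 0.56), and MYOCD was at 0 in all libraries.

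The promoters were searched for the CArG box because most of the 10 genes moved together and SRF acts downstream of RHOA. RefSeq windows (GRCh38.p14) of 300 bases, from 250 bases before a start to 50 after it, were found for 9 of the 10 genes, with 14 windows in all, and not for MYL9. A CArG box lay in 2 of the 14 windows, against 1.29% of all 35116 windows. Both are shown with 25 bases on either side, and the capitals mark the box.
MYLK: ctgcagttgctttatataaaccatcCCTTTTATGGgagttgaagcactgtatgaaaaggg
ROCK2: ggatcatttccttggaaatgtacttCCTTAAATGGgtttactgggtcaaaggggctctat
The MYLK sequence is the minus strand of chr3:123620608-123620667, upstream of an internal start at which 6 of the 57 annotated MYLK transcripts begin within 100 bases, and not the start of the long kinase transcripts. The ROCK2 sequence is the minus strand of chr2:11345476-11345535, in a window upstream of a second start, and the window of the MANE Select start of ROCK2 held no box. On either strand, the letters GGAATG, the core of the TEAD motif, were found in 5 of the 14 windows, 1 each of MYH9, MYH10, MYL12A, MYLK and ROCK2, against 14.0% of all windows. Neither CArG box overlapped such a match. The AP-1 letters TGANTCA were in 0 of the 14, against 7.71% of all windows. The 14 windows are not independent, since MYL12A and MYL12B have 3 each and some of those of MYL12B overlap. Whether any motif is enriched was not tested. A match of letters does not show that a factor binds there.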

How the data were processed

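Poly(A)-enriched RNA from 3 control and 3 TAK1 knockdown RD cultures was sequenced as 75-base paired reads. The authors deposited raw counts of reads per gene symbol, made after CASAVA base calling, read filtering and STAR alignment to GRCh38. The counter, annotation and use of strand are not given in the sources used here, so overlapping and antisense genes may share reads.

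Groups and replicate numbers were taken from the labels. Counts were compared with edgeR 4.0.16 in R 4.3.3 (default expression filter, trimmed mean of M-values, quasi-likelihood test), with p-values adjusted after Benjamini and Hochberg over 15935 genes. Thresholds were those of the study's methods (0.05 for the adjusted p and 0.25 for the log2 fold change in either direction). The standard error of a fold change follows from its F statistic, as the absolute log2 value over the root of F. Family shares were compared with two-sided exact permutation tests over samples. DESeq2 1.42.0, limma 3.58.1 (voom), a replicate block, 3 normalizations, 2 filters, 2 fold thresholds and the removal of each sample in turn were alternatives. The edgeR, DESeq2 and voom fits were tested on simulated data. The planted fold changes were larger than that of any of the 10 genes, so calls near the fold threshold were not tested. At 28839898 to 34469323 counts per sample, the common biological coefficient of variation over all genes was 5.67%, and for some of the 10 genes counting error is about as large as the spread between replicates of a group.

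The 10 genes and the lists were chosen with earlier results of these data known. Named pathway genes are, per list, up to 4 called genes with the largest absolute log2 fold change and a mean of at least 1 CPM, plus genes that a small count needs. SRF, MRTFA, PPP1R12B, ANLN, RACGAP1, CIT and MYH3 were named after their values were seen. Gene models and transcripts were taken from GENCODE 44 and promoter windows from RefSeq (GRCh38.p14). Per-transcript lengths were chosen after the data were seen. The leukocyte marker list and 1 of the 10 pathway lists, whose genes stay in the counts over all lists, are not reported here.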

Additional observations from a re-analysis of the deposited data

How the results depend on the processing

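The direction of the log2 fold change was kept under all 16 alternatives for MAP3K7 (-1.36 to -1.25) and for 9 of the 10 genes. In the 2 alternatives that change only the fold threshold, the fold change and adjusted p are those of the main fit and could not move. MYL6 changed sign with upper-quartile normalization (0.002), with scaling by library size alone (0.033), without replicate 2 of the control cultures (0.008) and without replicate 1 of the knockdown cultures (0.063), with a range of -0.08 to 0.063 over single cultures left out, and was never called. ROCK1, MYLK and MYL12A were called in every alternative. Of the 10 genes, 0 were called up in place of 1 with relative log expression (RLE) normalization, without a filter, with DESeq2 and at a fold threshold of 0.5, and 0 to 1 with 1 culture left out. At the fold threshold of 0.5, 3 rather than 6 genes were called down, and 4 to 6 were with 1 culture left out. The fold threshold of 0.5 left 7 upregulated and 7 downregulated genes of the pathway lists, and without a fold threshold 44 were downregulated. With 1 culture left out, 17 to 21 were upregulated and 22 to 29 downregulated. Scaling by library size alone made 62.9% of all calls upward, against 51.0%, and moved the median of all genes from 0.018 to 0.066.

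Over all tested genes, same-numbered replicates hardly deviated together, with correlations of 0.037, 0.036 and 0.016 for numbers 1, 2 and 3. Single genes could still follow the number. The MYL9 share fell from number 1 to number 3 in both groups, and the level of MYL12A rose from number 1 to number 3 in both. The samples numbered 1 and 2 correlated best with their own number, but this did not hold for both samples numbered 3. The labels do not say what same-numbered replicates share. With a replicate block the counts were 1 gene up and 6 down of the 10, and 19 up and 25 down of the pathway genes. The block lowered the edgeR quasi-likelihood adjusted p of MYH9 from 0.00291 to 0.000136 and that of MYH10 from 0.0472 to 0.0108. That of RHOA moved from 2.43e-05 to 3.89e-07. The shares of MYL9 and ROCK1 kept their direction in all alternatives, and with pairs their exact p was 0.25, the smallest that 3 pairs allow. The MYH9 share kept its sign, but per kilobase of exon union its difference was only -0.0437 percentage points (two-sided exact permutation p = 0.9). With 3 samples a group, no unpaired share comparison could reach an exact p below 0.1.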
